A study of Mus musculus with 4 samples.

Results

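Basal epithelial cells of the mouse prostate were picked out of a droplet single-cell RNA data set of 4 libraries by their keratins; they were chosen by measured counts of a few genes. A cell counted as basal when Krt5 and Krt14 together made up at least 10 per 10000 of its unique molecular identifiers (UMIs, each marking 1 captured RNA molecule), when at least 2 Krt5 UMIs were present, when the secretory genes Pbsn, Msmb, Defb50, Sbp and Tgm4 summed to less than 100 per 10000, and when no UMI of the leukocyte gene Ptprc was found. Of 36326 barcodes, 31165 had 500 or more UMIs, 200 or more detected genes and no more than 20% of UMIs from mitochondrial genes, and 375 of those met the rule. The basal cells comprised 23 from Trp53-deleted ADT, 84 from Trp53-deleted, 135 from Trp53-intact ADT and 133 from Trp53-intact mice.

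Each group was 1 library, made from prostates dissociated with collagenase type II and TrypLE and captured with the 10x Chromium 3′ version 3 kit. The tumour suppressor gene Trp53 was deleted in 2 of the groups, with a mark (PC) in the genotype that is read here as restricted to the prostate, and was not deleted in the other 2. Each genotype was sampled with and without ADT, which the labels do not spell out and which is taken here to mean androgen deprivation therapy. Mice were 5.5 months old in Trp53-deleted ADT, 3.5 months in Trp53-deleted, 5.5 months in Trp53-intact ADT and 4 months in Trp53-intact. The effects of ADT, of age and of the library itself cannot be told apart. The same holds for genotype and library, and without ADT for age as well, so no test between libraries was possible. How many mice went into a library, and which driver made the deletion, could not be read from the labels.

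Basal cells line the outer side of the prostate epithelium, between the secretory luminal cells and the basement membrane, to which hemidesmosomes fasten them. The transcription factor p63, encoded by Trp63, maintains them, and keratins 5, 14 and 15 form their intermediate filaments. In mice, luminal cells depend on androgen for survival and secretion, whereas most basal cells outlive castration and some can give rise to luminal cells.

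The libraries held 58088678 to 148030357 UMIs, with a median of 4081 to 5562 per kept cell, and Trp53-deleted had the most barcodes over the mitochondrial limit (25.7%, against 8.39 to 13.9% in the other 3). Basal cells made up 0.239% of the kept cells in Trp53-deleted ADT (95% exact binomial interval 0.152 to 0.358), 1.48% in Trp53-deleted (1.18 to 1.82), 1.74% in Trp53-intact ADT (1.46 to 2.06) and 1.64% in Trp53-intact (1.38 to 1.94). Trp53-deleted ADT stood apart with the smallest share and with 340398 basal UMIs in all, against 1524101 in Trp53-deleted, 3434735 in Trp53-intact ADT and 3107522 in Trp53-intact. Trp53-deleted ADT was lowest also against epithelial cells alone, where basal cells were 7.96% of basal, luminal and secretory cells in Trp53-deleted ADT, 22.4% in Trp53-deleted, 23.6% in Trp53-intact ADT and 18.1% in Trp53-intact. Median UMIs per basal cell were 11191, 14536.5, 12842 and 15988 in that order of libraries, and a single cell supplied 16.7%, 7.98%, 6.72% and 4.93% of the basal UMIs. No basal barcode occurred in more than 1 library among basal cells, although 3 of the 375 were also kept barcodes of another library. All intervals here cover counting error only.

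The keratins that chose the cells are given as a description. Krt5 (chr15:101707070-101712898, minus strand, GRCm38) reached 1328 CPM (UMIs scaled to 1000000 basal UMIs in all) in Trp53-deleted ADT, 1667 in Trp53-deleted, 1792 in Trp53-intact ADT and 1696 in Trp53-intact. Krt14 (chr11:100203162-100207548, minus strand) reached 2212, 1774, 1757 and 1351 CPM in the same libraries. In Trp53-deleted ADT 1 cell held Krt14 at 119.3 per 10000, where the median over cells was 14.7. Near the limits of the rule, 18 members carried exactly 2 Krt5 UMIs, while 110 cells with exactly 1 would otherwise have been members, 69 of them in Trp53-intact ADT. Likewise, 48 members lay between 10 and 15 keratin UMIs per 10000 and 50 otherwise eligible cells between 5 and 10, and the median member stood at 29.1. A further 53 cells failed on a Ptprc UMI, none failed on the secretory limit, and 87 cells had enough Krt14 but no Krt5 UMI.

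Krt15 and Col17a1, basal markers that the rule did not use, were present in all 4 libraries. Krt15 (chr11:100131758-100135928, minus strand), a keratin of basal layers, reached 2917 CPM in Trp53-deleted ADT, 5605 in Trp53-deleted, 3420 in Trp53-intact ADT and 5046 in Trp53-intact basal cells. After each cell was thinned to 2000 UMIs, 81.0%, 97.6%, 91.3% and 97.6% of basal cells had a Krt15 UMI, against 5.76%, 11.2%, 7.41% and 9.16% of neutrophils, cells that should lack the gene and so show the level of free RNA. The share in basal cells was above that background in every library. Col17a1 (chr19:47646344-47692094, minus strand), the hemidesmosome collagen XVII, gave 38.1%, 63.4%, 39.8% and 35.4% of thinned basal cells against 0 to 0.487% of thinned neutrophils (2 to 32 shallow basal cells per library were left out). Without thinning, Col17a1 was seen in 69.6%, 97.6%, 65.9% and 88.0% of basal cells. Trp63 (chr16:25683763-25892102, plus strand) was seen in 15 of 23, 77 of 84, 80 of 135 and 105 of 133 basal cells. No UMI of Krt14, Krt15 or Col17a1 was found in 3 of the 23 members from Trp53-deleted ADT, none of the 84 from Trp53-deleted, 3 of the 135 from Trp53-intact ADT and none of the 133 from Trp53-intact. Those 6 cells met the rule through Krt5 alone, and in them the label had no support from Krt15 or Col17a1.

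**Figure D1:**
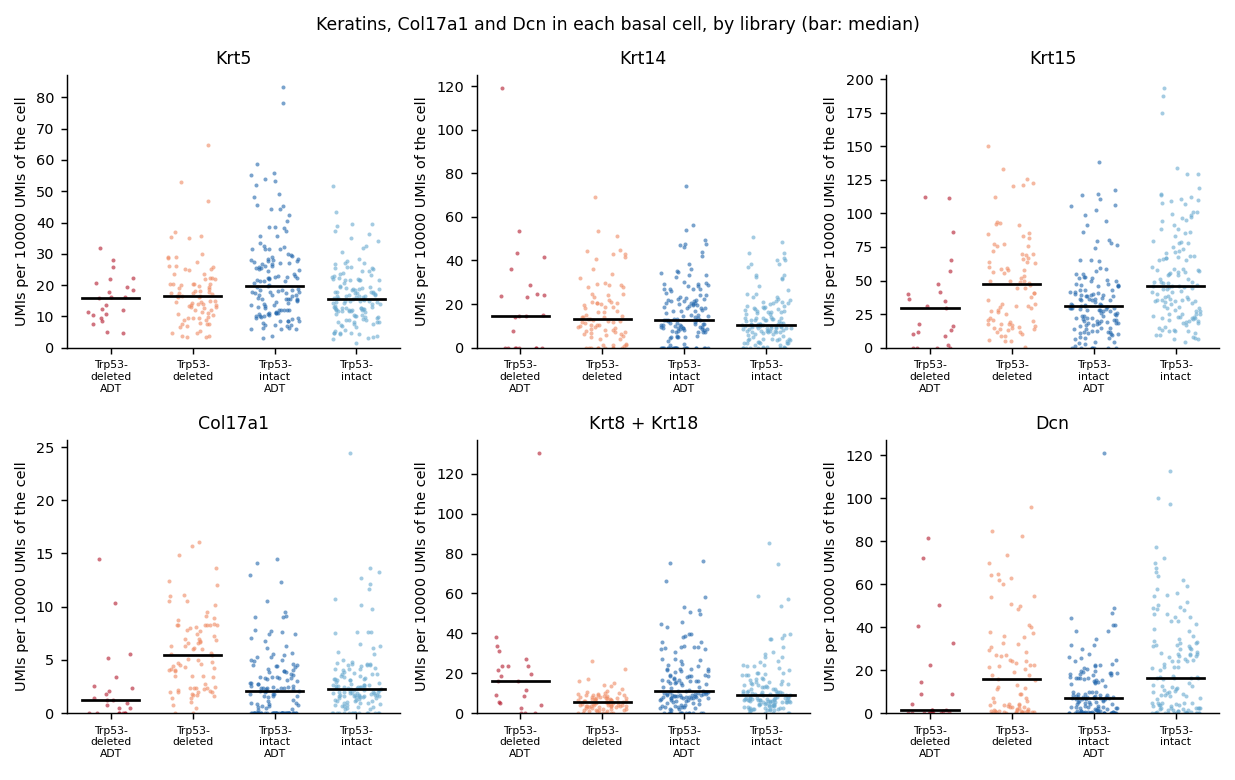
Each point is a basal cell of the library named below the axis, the vertical axis gives the UMIs of the named gene or pair per 10000 UMIs of that cell, and the bar is the median over cells. Median Krt15 was 29.2 in Trp53-deleted ADT, 47.8 in Trp53-deleted, 30.8 in Trp53-intact ADT and 46.0 in Trp53-intact, and Krt8 plus Krt18 was lowest in Trp53-deleted (median 5.48).

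Genes of other cell types were present in the basal sums at different levels. Secretory luminal genes, which the rule itself limited, summed to 0, 30.8, 0.582 and 373 CPM in Trp53-deleted ADT, Trp53-deleted, Trp53-intact ADT and Trp53-intact basal cells. Smooth muscle and pericyte genes summed to 176, 72.2, 266 and 82.7 CPM in basal cells against 519, 162, 215 and 334 CPM in stromal cells, with Myh11 at 0 in basal cells of all 4 libraries, and their part in the results was not tested. Endothelial genes summed to 0, 6.56, 7.86 and 28.6 CPM, macrophage genes to 99.9, 50.5, 28.5 and 56.3 CPM, and B and plasma cell genes to 20.6, 127, 85.0 and 333 CPM. Fibroblast genes summed to 2491, 2083, 1301 and 2398 CPM, most of it from Dcn, the matrix proteoglycan decorin. Dcn alone reached 2165, 2039, 1247 and 2272 CPM in basal cells, while Col1a1, the main fibroblast collagen, reached 132, 5.25, 13.1 and 19.3 CPM. Per Col1a1 UMI, basal cells held 16.4, 388.5, 95.2 and 117.7 Dcn UMIs, against 0.508, 14.6, 22.1 and 5.65 in stromal cells of the same libraries. The values were 0.645, 37.2, 87.5 and 8.87 in luminal cells and 0.344, 26.8, 30 and 6.57 in neutrophils. In Trp53-intact ADT the luminal value was thus near the basal one. Dcn was seen in 47.6%, 79.3%, 66.0% and 76.4% of thinned basal cells, and in 31.3%, 53.6%, 28.8% and 26.5% of thinned neutrophils, so that part of the signal lay within the background of free RNA. How much of the basal Dcn was free RNA was not tested.

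Basal cells varied widely in the luminal keratins Krt8 and Krt18, which the rule left free. The pair made up at least 10 per 10000 UMIs in 14 of 23 cells in Trp53-deleted ADT (60.9%, exact interval 38.5 to 80.3), 11 of 84 in Trp53-deleted (13.1%, 6.72 to 22.2), 73 of 135 in Trp53-intact ADT (54.1%, 45.3 to 62.7) and 59 of 133 in Trp53-intact (44.4%, 35.8 to 53.2). Trp53-deleted was thus the lowest library, and the intervals of the other 3 overlapped. The line at 10 cuts through a continuous range, since 5, 41, 50 and 63 cells lay between 5 and 15, and cells above it were deeper, with median UMIs of 13127, 25421, 14818 and 18024 above and 8146, 14292, 12296 and 14254.5 below. Cells above the line had more of several other genes in 4 of 4 libraries. Cldn3, a tight-junction claudin, stood at 142 CPM above the line and 12.4 below it in Trp53-deleted ADT, at 244 and 25.8 in Trp53-deleted, at 248 and 6.73 in Trp53-intact ADT and at 125 and 16.6 in Trp53-intact. Cdh1, which encodes E-cadherin, stood at 358 and 174, 452 and 377, 295 and 156, and 357 and 167 CPM in the same order. Krt17, a keratin of activated epithelium, was 1259 against 211 CPM in Trp53-deleted ADT and 1780.3 against 502.5 in Trp53-intact, but only 703 against 696 in Trp53-intact ADT. Adhesion genes ran the other way: Col17a1 stood at 189 above and 211 below, 391 and 551, 253 and 389, and 229 and 319 CPM, and Dst, Lamb3, Lamc1, Col4a5 and Dsc3 were also lower above the line in every library. Doublets of a basal and a luminal cell would also carry both keratin pairs; no doublet caller was run and their part was not tested.

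Basal cells were next compared with the luminal cells of the same libraries, taken by keratin counts alone (Krt8 and Krt18 at least 10 per 10000, Krt5 and Krt14 under 10, at least 1 Epcam UMI, the same secretory and Ptprc limits, and seminal vesicle genes under 100 per 10000). This gave 266 luminal cells in Trp53-deleted ADT, 287 in Trp53-deleted, 437 in Trp53-intact ADT and 511 in Trp53-intact. UMIs were summed per library and population, so that each library gave 1 basal and 1 luminal profile, and edgeR's quasi-likelihood test was run with library as a block. The genes used to pick either population are left out of what follows, and genes that travel with those keratins from cell to cell had to differ with them. Of 11775 genes tested, 1880 (16.0%) rose in basal cells and 2139 (18.2%) fell at an adjusted p (Benjamini-Hochberg) under 0.05. Each count of list genes that follows is to be read beside these shares. Leaving out the Trp53-intact library gave 1147 and 1327.

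Transcription factors of the basal state come first. Trp63 stood at 118, 325, 132 and 177 CPM in basal cells of Trp53-deleted ADT, Trp53-deleted, Trp53-intact ADT and Trp53-intact, against 8.43, 2.01, 4.26 and 5.25 CPM in luminal cells. It was higher in basal cells of every library (log2 fold change 5.28, SE 0.44, edgeR adjusted p = 0.000116). Its relative Trp73 was rare, at 5.88, 4.59, 8.73 and 2.90 CPM in basal cells and at most 0.312 in luminal cells, with a log2 fold change of 5.99 (SE 0.73, adjusted p = 0.00049). Fold changes in parentheses from here on are log2, basal over luminal, and of genes that passed the test. Other transcription factors of the basal list that rose were Sox15 (5.70), Snai2, an epithelial-plasticity factor (4.65), and Tfap2c (2.0). Of 26 members of that list tested, 7 rose, 6 fell and 13 did not pass, with a median log2 fold change of −0.04, against 0.00 over all genes tested. Among all genes 16.0% rose and 18.2% fell, so the list as a whole did not lean to the basal side. Those that fell included Elf3, of differentiated epithelium, at 109, 91.2, 92.0 and 80.1 CPM in basal against 277, 416, 332 and 479 in luminal cells (−2.02), and Elf5, at 0 to 2.62 against 3.80 to 65.4 CPM (−4.19).

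Keratins split in both directions, with 5 of 8 tested rising and 3 falling. Krt15 rose over luminal cells, which held 862.5, 1613, 916 and 1025 CPM (log2 fold change 1.96, SE 0.13, adjusted p = 4.18e-05). Krt17 stood at 1011, 285, 701 and 1186 CPM in basal and 75.4, 31.2, 73.3 and 106 CPM in luminal cells (3.43), and Krt13 and Krt16 also rose (2.66 and 2.37). Krt6a, of wound and hair-follicle keratinocytes, rose by 1.26. Krt23, at 23.5, 4.59, 30.6 and 15.1 CPM against 119, 100, 176 and 280.2 CPM, fell by 3.35, with Krt80 and Krt4 falling by less.

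Genes of adhesion to the basement membrane mostly rose. Of 20 hemidesmosome and laminin genes, 15 rose, 4 did not pass and only Lamb2 fell (−0.82), and the list median was 1.43. Col17a1 was at 194, 513, 294 and 271 CPM in basal cells against 6.40, 3.25, 5.33 and 6.74 CPM in luminal cells (5.84, SE 0.34, adjusted p = 2.49e-05). Col7a1, the collagen of anchoring fibrils, was at 32.3, 258, 46.3 and 111 CPM against 4.21, 4.39, 2.04 and 3.29 CPM (4.89, SE 0.36). The basal and luminal ranges did not overlap for either gene, and Trp53-deleted was the highest basal library for both. Lamb3 (3.40) and Lama3 (2.59), chains of laminin 332, Dst, which links keratin to hemidesmosomes (2.65), and the integrin genes Itgb4 (2.13) and Itga6 (1.56) rose as well. The matrix list, with basement membrane components, gave 15 rising and 5 falling of 23, with Hspg2 (3.89), Col18a1 (3.51), Col4a2 (3.11) and Col4a1 (2.71) in front. Plat (−2.66) and Mmp7, the matrix protease matrilysin (−1.65), fell.

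Cell-to-cell junction genes went both ways, with 7 rising, 4 falling and 4 not passing of 15. Those rising included the desmosomal cadherin Dsc3 (4.00), P-cadherin Cdh3 (3.36), Dsg3 (2.79), Pkp1 (2.55) and Perp (2.38). Those falling were the desmosomal plakophilin Pkp2 (−2.52), Cdh1 (−0.93), Ctnnd1 (−0.54) and Ctnnb1 (−0.44). Of 21 contractile and mesenchymal genes, 15 rose and none fell (median 2.09), led by Acta2 (4.74), Tnc (4.05), Tagln (3.56) and Myl9 (3.44). Acta2 was nevertheless present in only 7 of 23, 5 of 84, 21 of 135 and 19 of 133 basal cells. After thinning, the shares of 14.3%, 2.44%, 8.74% and 4.72% stood beside 18%, 6.23%, 6.53% and 10.5% of neutrophils. The share of cells with Acta2 was thus at or near that of neutrophils, but its level rested on few cells. Acta2 was at 191 CPM in basal against 2.91 in luminal cells of Trp53-intact ADT, with 50.9% of the basal UMIs in 1 cell. In Trp53-intact it was at 61.1 against 3.29 CPM, with 36.8% in 1 cell. The part of free RNA in Acta2 was not tested.

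**Figure D2:**
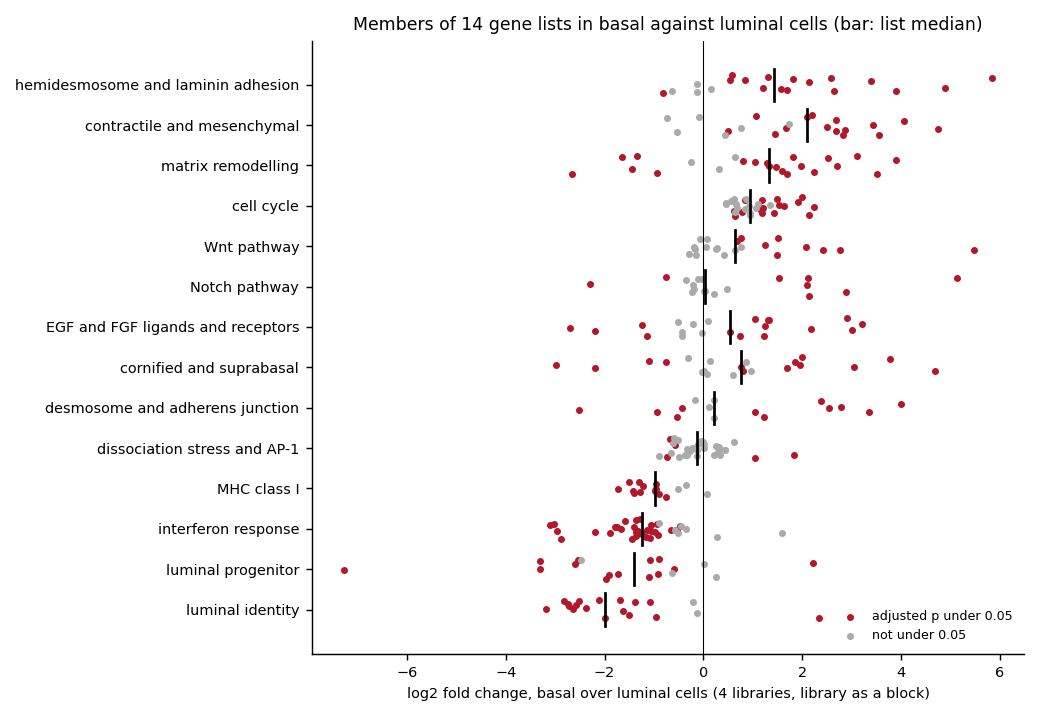
Each point is a gene of the list named at the left, placed by its log2 fold change in basal over luminal cells across 4 libraries, red where the adjusted p was under 0.05 and grey where it was not; the black bar is the list median. Hemidesmosome, contractile and matrix genes lie mostly to the right (medians 1.43, 2.09 and 1.33), and interferon, luminal progenitor and luminal identity genes to the left (−1.24, −1.42 and −1.99).

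Some ligands and receptors of several pathways rose in basal cells. In the Notch pathway 6 of 18 genes rose, 2 fell and 10 did not pass, beside 16.0% rising and 18.2% falling among all genes. The Notch list median of 0.03 was level with all genes. The ligand Jag2 was at 88.1, 176, 94.6 and 101 CPM in basal cells against 6.09, 2.39, 2.42 and 3.17 CPM in luminal cells (5.14, SE 0.30, adjusted p = 2.58e-05), and the ligands Dll1 (2.88) and Jag1 (2.1), the receptor Notch1 (1.52) and the target Hey1 (2.14) also rose, while the ligand Dll4 fell (−2.30). The non-canonical ligand Dlk2 reached 17.6, 30.2, 21.5 and 26.1 CPM against at most 0.749 CPM in luminal cells. Of 21 Wnt genes 9 rose and none fell: the ligand Wnt10a (5.48), the stem-cell receptor Lgr5 (2.76), which stayed under 13 CPM, Dkk3 (2.41) and the receptor Fzd2 (2.07) led. Of 21 genes of growth factor signalling, 11 rose and 4 fell. Igfbp5, which binds insulin-like growth factors, was at 1736, 2638, 1729 and 1881 CPM against 240.4, 201, 144 and 318 CPM (3.20), Nrg1, a ligand of ErbB receptors, rose by 2.90 and Fgfr2 by 2.18. Egf (−2.71), Btc (−2.19), Erbb3 (−1.25) and Hbegf (−1.14) fell. Cntfr, the receptor for ciliary neurotrophic factor, was among the most basal genes of all, at 38.2, 42.7, 37.9 and 33.2 CPM against 0.0955 to 1.07 CPM (5.99, SE 0.37, adjusted p = 3.16e-05).

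Luminal genes mostly fell in basal cells, and hormone-related genes went both ways. Of 19 luminal identity genes tested, 16 fell, led by Muc1 (−3.18), Cldn3 (−2.82), Prom1 (−2.74) and Spdef (−2.73). Of 39 androgen-response genes 10 rose, 15 fell and 14 did not pass (median −0.38), beside 16.0% rising and 18.2% falling among all genes. Vdr, the vitamin D receptor, rose by 2.30, the steroid 5α-reductase gene Srd5a1 by 1.96, the oestrogen receptor gene Esr1 by 1.39 and the glucocorticoid receptor gene Nr3c1 by 0.80, while Hsd11b2, which inactivates glucocorticoids, fell by 4.43. Of 18 luminal progenitor genes 13 fell, led by Tff3 (−7.27), Psca (−3.31) and Clu (−3.30). Aldh1a1, which makes retinoic acid, was the exception and rose (2.21, SE 0.24).

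Basal cells were lower in genes of defence. No interferon-response gene rose, and 30 of 37 fell, with a list median of −1.24. Of 16 MHC class I genes 13 fell and none rose (median −0.98): B2m, the class I light chain, was at 967, 1709, 1369 and 1214 CPM against 2658, 4207, 3176 and 4153 CPM (−1.42, SE 0.12, adjusted p = 0.00011). Saa1, Tnf, Cxcl5 and Cxcl17 fell among 31 cytokine and chemokine genes (11 fell, 7 rose, median −0.48), beside 18.2% falling and 16.0% rising among all genes. Il33, an alarmin, rose instead, with 546, 528, 465 and 594 CPM against 61.1, 70.1, 140.0 and 71.4 CPM (2.73, SE 0.24), as did Cxcl14 (3.18), Cxcl12 (2.27) and Tgfb3 (1.60). Il33 was thus higher in basal cells of each library.

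Proliferation and suprabasal genes leaned to the basal side. Of 33 cell-cycle genes 17 rose and none fell (median 0.95), led by Mcm5 (2.23), Ccnd2 (2.14), Rrm2 (2.0) and Mcm3 (1.91). Mki67, a gene of cycling cells, was nevertheless seen in only 1 of 23, 7 of 84, 10 of 135 and 9 of 133 basal cells. Lgals7, a galectin of stratified epithelium, was at 1998, 1992, 2188 and 869.5 CPM against 193, 32.6, 77.3 and 38 CPM (4.68, SE 0.36), and 9 of 21 cornified and suprabasal genes rose while 4 fell. Of 33 stress and immediate-early genes 28 did not pass over the 4 libraries. Within a library such genes could still differ, and not always the same way. Fos was at 320 CPM in basal against 1012 in luminal cells of Trp53-deleted, and at 3211 against 2034 CPM in Trp53-deleted ADT. Mucins and secreted proteins were among the genes that fell most: Muc4 had no UMI in any basal sum against 17.2, 10.0, 5.33 and 7.09 CPM in luminal cells, and Lypd8 stood at 11.8, 0, 0 and 4.18 against 555, 143, 61.0 and 729.6 CPM.

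Libraries were then compared with each other inside basal cells. A gene was measured in a comparison when it had at least 50 UMIs over the 2 libraries, and differences are log2 ratios of CPM with 10 CPM added to each side, which understates changes of low genes; higher and lower mean at least 2-fold on that scale, with no test behind it. Where a level is given as 0, 3 UMIs would have been 8.81 CPM in Trp53-deleted ADT, 1.97 in Trp53-deleted, 0.873 in Trp53-intact ADT and 0.965 in Trp53-intact. Trp53 itself (chr11:69580359-69591873, plus strand) was at 20.6 CPM in Trp53-deleted ADT, 24.3 in Trp53-deleted, 123 in Trp53-intact ADT and 96.5 in Trp53-intact basal cells. Both deleted libraries were below both intact ones, in the direction of the labels, with a ratio of 0.167 under ADT (95% interval 0.0666 to 0.346). UMIs of Trp53 remained in 7 of 23 and 30 of 84 cells of the deleted libraries, against 79 of 135 and 84 of 133 in the intact ones. The labels do not say which part of the gene was deleted, and 3′ reads do not show whether a deleted part lies upstream.

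ADT was set against no ADT within each genotype. In Trp53-deleted mice, of 5499 genes measured, 128 (2.33%) were higher and 511 (9.29%) lower, and the median over all genes was −0.232. With edgeR's TMM factors in place of library totals, the split was 175 higher and 310 lower. In Trp53-intact mice 123 of 9062 genes (1.36%) were higher with ADT and 95 (1.05%) lower, with a median of 0.081. These comparisons share no library. Among the 5490 genes measured in both, 21 were higher with ADT in both genotypes, which is 16.8% of the 125 higher in Trp53-deleted and 30.4% of the 69 higher in Trp53-intact, and 30 were lower in both, which is 5.93% of 506 in Trp53-deleted and 30 of 60 in Trp53-intact.

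The genes lower with ADT in both genotypes included several that steroid hormones induce. Fkbp5, a co-chaperone of steroid receptors, was at 29.4 CPM in Trp53-deleted ADT against 119 in Trp53-deleted basal cells, and at 11.9 in Trp53-intact ADT against 56.0 in Trp53-intact. Zbtb16, a transcription factor, was at 0 against 41.3 CPM in Trp53-deleted and at 2.04 against 14.5 CPM. The ADT library was the lower one for both genes in both genotypes. Fewer basal cells behind the Trp53-deleted ADT values widen their counting intervals, as the plot of CPM by library shows. Over the whole androgen-response list, in Trp53-intact mice 0 of 35 genes were higher under ADT and 5 were lower (median −0.25; Fkbp5, Tsc22d3 and Aldh1a3 among them). In Trp53-deleted 3 of 25 were higher (Hpgd, Krt8 and Ndrg1) and 6 lower (median 0.06). All genes together gave 1.36% higher and 1.05% lower in Trp53-intact, and 2.33% higher and 9.29% lower in Trp53-deleted. Tsc22d3, a glucocorticoid-induced gene, did not share the pattern, at 55.8 against 49.9 CPM in Trp53-deleted and 19.5 against 63.4 CPM in Trp53-intact.

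Aldh1a1 (chr19:20492715-20643465, plus strand) was lower with ADT in both genotypes, at 44.1 CPM in Trp53-deleted ADT against 208 in Trp53-deleted and at 23.3 CPM in Trp53-intact ADT against 171 in Trp53-intact. In Trp53-intact mice it was seen in 36 of 135 cells with ADT and in 103 of 133 without, and the ratio was 0.136 (95% interval 0.106 to 0.173). Aldh1a7, a close paralogue with which 3′ reads may be shared, followed it, at 20.6 against 127 CPM and 3.49 against 64.4 CPM. The protease gene Mmp7 was at 17.6 against 759 CPM and at 266 against 1051 CPM, while Sult5a1, a sulfotransferase gene, was at 8.81 against 42.0 CPM and at 7.28 against 135.5 CPM. Leukocytes, here cells with a Ptprc UMI, held 2.61 CPM of Mmp7 in Trp53-deleted ADT against 118 in Trp53-deleted and 107 in Trp53-intact ADT against 707 in Trp53-intact. The level outside basal cells thus moved with the basal one, and its part in the result was not tested. Rgs2, Cav1, Ndrg2 and Wif1 were also lower in both, as were the plasma and B cell genes Igkc and Ighm.

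Genes higher with ADT in both genotypes included immediate-early and stress genes. Klf4, a transcription factor of epithelial differentiation, was at 417 CPM in Trp53-deleted ADT against 63.0 in Trp53-deleted and at 385 in Trp53-intact ADT against 118 in Trp53-intact. Socs3, a feedback inhibitor of cytokine signalling, was at 235 against 34.8 CPM and at 134 against 45.7 CPM. Cebpd (197 against 36.7 CPM, and 178 against 61.1 CPM), Nupr1 (1260.3 against 253 CPM, and 1003 against 380 CPM) and Aldh3a1 (85.2 against 21 CPM, and 69.9 against 22.9 CPM) had the same order. Klf4 was at 486 and 322 CPM in leukocytes with ADT and at 224 and 234 CPM without, so that it was higher with ADT outside basal cells too.

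**Figure D3:**
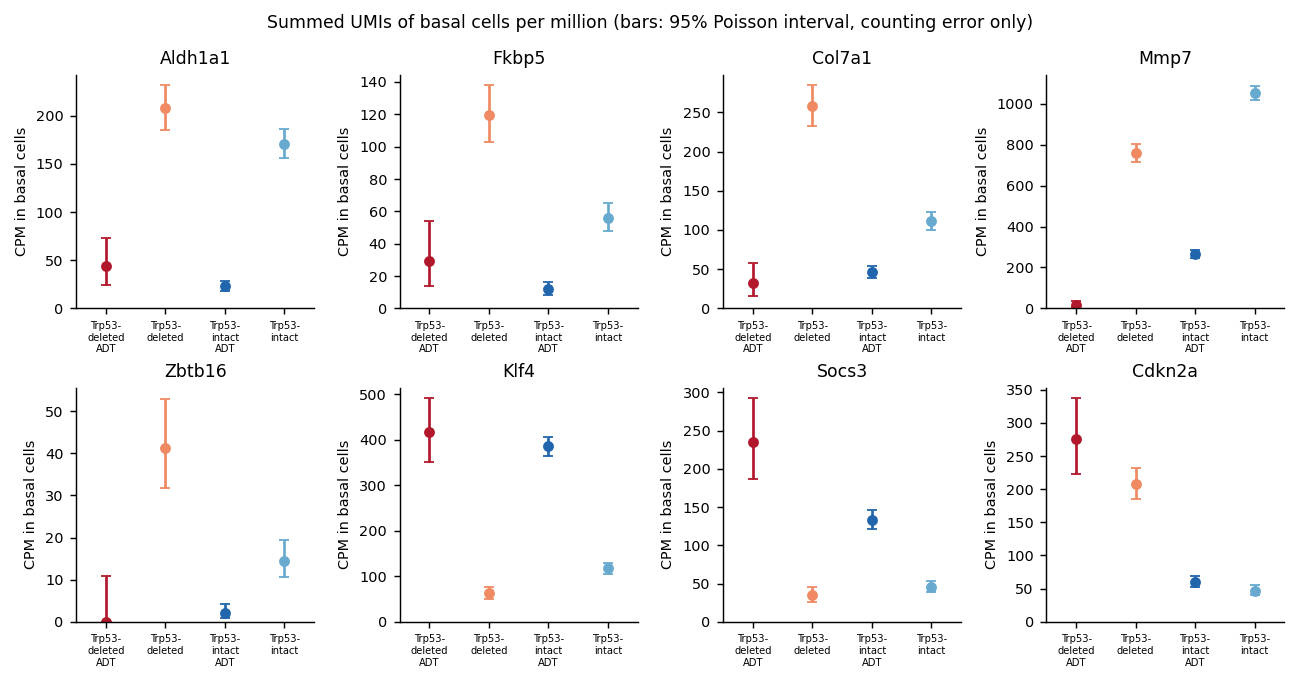
CPM of 8 genes in the summed basal cells of each library, with 95% Poisson intervals that cover counting error only. Aldh1a1, Fkbp5, Col7a1, Mmp7 and Zbtb16 are lower in both ADT libraries than in their partners without ADT, Klf4 and Socs3 are higher, and Cdkn2a is higher in both Trp53-deleted libraries (276 and 207 CPM) than in both Trp53-intact libraries (60.6 and 47.0 CPM).

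Interferon-response genes stood on opposite sides with ADT in the 2 genotypes, lower in Trp53-deleted and higher in Trp53-intact. These genes are switched on when cells sense interferon, through a short element in many of their promoters. In Trp53-intact mice 11 of 32 measured were higher with ADT and 1, Cxcl10, lower (list median 0.84), and 31 lay above the median of all genes. In Trp53-deleted mice 1 of 25, Irf1, was higher with ADT and 16 were lower (median −1.28), and 3 lay above the median of all genes. All genes together gave 1.36% higher and 1.05% lower in Trp53-intact, and 2.33% higher and 9.29% lower in Trp53-deleted. Relative to the medians of all genes the list stood at −1.05 in Trp53-deleted and 0.76 in Trp53-intact. The difference between the genotypes was not tested.

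Isg15, a ubiquitin-like modifier, was at 5.88 CPM in Trp53-deleted ADT, 72.8 in Trp53-deleted, 87.9 in Trp53-intact ADT and 17.7 in Trp53-intact basal cells. The Isg15 value of Trp53-deleted ADT lay under the 8.81 CPM that 3 UMIs make there. Ifit3, an antiviral gene, was at 11.8, 42.7, 26.5 and 3.86 CPM, and Bst2, a tether of virus particles, at 47.0, 132, 168 and 50.2 CPM. For Isg15 and Bst2, Trp53-deleted and Trp53-intact ADT were high and the other libraries low, and Irf7 (41.1, 123, 119 and 43.1 CPM) and Rtp4 (23.5, 91.9, 99.9 and 26.1 CPM) had the same shape. Irf1 alone was highest in Trp53-deleted ADT, at 126, 37.4, 62.0 and 30.3 CPM. Without ADT the list was higher in Trp53-deleted than in Trp53-intact (15 of 30 higher, none lower, median 0.96). Of all 8262 genes measured there, 190 (2.30%) were higher and 158 (1.91%) lower, with a median of 0.241. With ADT the list was lower in Trp53-deleted ADT than in Trp53-intact ADT (none of 31 higher, 15 lower, median −0.76), and of all 7502 genes 87 (1.16%) were higher and 305 (4.07%) lower, with a median of −0.093. Its sign was the same in each comparison under every alternative run, including TMM factors, which gave −1.09 with ADT in Trp53-deleted, 0.77 with ADT in Trp53-intact, 0.76 for the genotypes without ADT and −0.77 for those with it.

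Luminal cells of the same libraries did not show the Trp53-deleted ADT value. Isg15 was at 165, 158, 201 and 84.0 CPM in luminal cells of Trp53-deleted ADT, Trp53-deleted, Trp53-intact ADT and Trp53-intact, and Ifit3 at 267, 128, 260.5 and 84.7 CPM, so that luminal Trp53-deleted ADT was level with or above Trp53-deleted. Leukocytes held 72.2, 118, 148 and 84.8 CPM of Isg15 and neutrophils 306 to 597 CPM, more than basal cells in every library. The part of free RNA in the low basal values was not tested.

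The promoters of 3 of these genes are shown because their levels carry the pattern and their sequence holds the interferon-stimulated response element. They are the 250 bases before each RefSeq gene start (GRCm38.p6), written 5′ to 3′ on the strand of the gene, with capitals where GAAA, any 2 bases and GAAA follow each other on either strand (on the opposite strand, TTTC, any 2 bases and TTTC).
Isg15, chr4:156200819-156201068, minus strand: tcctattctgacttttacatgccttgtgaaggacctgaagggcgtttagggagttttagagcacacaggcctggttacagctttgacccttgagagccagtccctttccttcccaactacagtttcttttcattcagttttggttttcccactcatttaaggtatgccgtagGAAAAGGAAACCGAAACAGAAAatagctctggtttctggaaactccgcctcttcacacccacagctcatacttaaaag
Ifit3, chr19:34583279-34583528, plus strand: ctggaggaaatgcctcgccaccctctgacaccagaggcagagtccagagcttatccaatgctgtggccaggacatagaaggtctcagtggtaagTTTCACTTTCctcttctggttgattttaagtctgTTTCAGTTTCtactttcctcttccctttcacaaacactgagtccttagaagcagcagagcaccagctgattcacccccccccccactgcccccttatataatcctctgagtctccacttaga
Bst2, chr8:71537473-71537722, minus strand: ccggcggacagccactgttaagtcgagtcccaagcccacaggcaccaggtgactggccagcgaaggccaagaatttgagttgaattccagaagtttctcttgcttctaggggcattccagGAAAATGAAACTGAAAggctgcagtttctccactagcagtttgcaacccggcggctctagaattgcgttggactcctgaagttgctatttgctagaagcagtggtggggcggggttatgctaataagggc
Isg15 held 3 overlapping matches in 1 run, from 78 bases before the start, Ifit3 held 2 separate ones at 156 and 122 bases, and Bst2 held 2 that overlap, at 130 and 124 bases. The element was found in 16 of the 29 promoters of the interferon list that the table held (55.2%), against 821 of 27025 promoters of the same length (3.04%). It was found in 3 of 14 MHC class I promoters (21.4%), 1 of 26 stress promoters (3.85%) and 1 of 14 hemidesmosome promoters (7.14%). A match is a description of the letters and not a bound site.

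MHC class I genes, many of which interferon also induces, went with the interferon list in part. With ADT in Trp53-intact 3 of 16 were higher and all 16 lay above the median of all genes (median 0.71). In Trp53-deleted against Trp53-intact without ADT, 6 of 14 were higher and all 14 lay above that median (0.90). H2-Q7 was at 141, 117, 163 and 45.1 CPM and H2-Q6 at 49.9, 53.2, 64.9 and 12.6 CPM in Trp53-deleted ADT, Trp53-deleted, Trp53-intact ADT and Trp53-intact, both lowest in Trp53-intact; these genes are near copies and may share reads. With ADT in Trp53-deleted, 2 of 14 were lower and none higher, so that the class I genes did not show the size of the interferon change there. Among all genes, 1.36% were higher in the first of these comparisons, 2.30% higher in the second and 9.29% lower in the last.

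**Figure D4:**
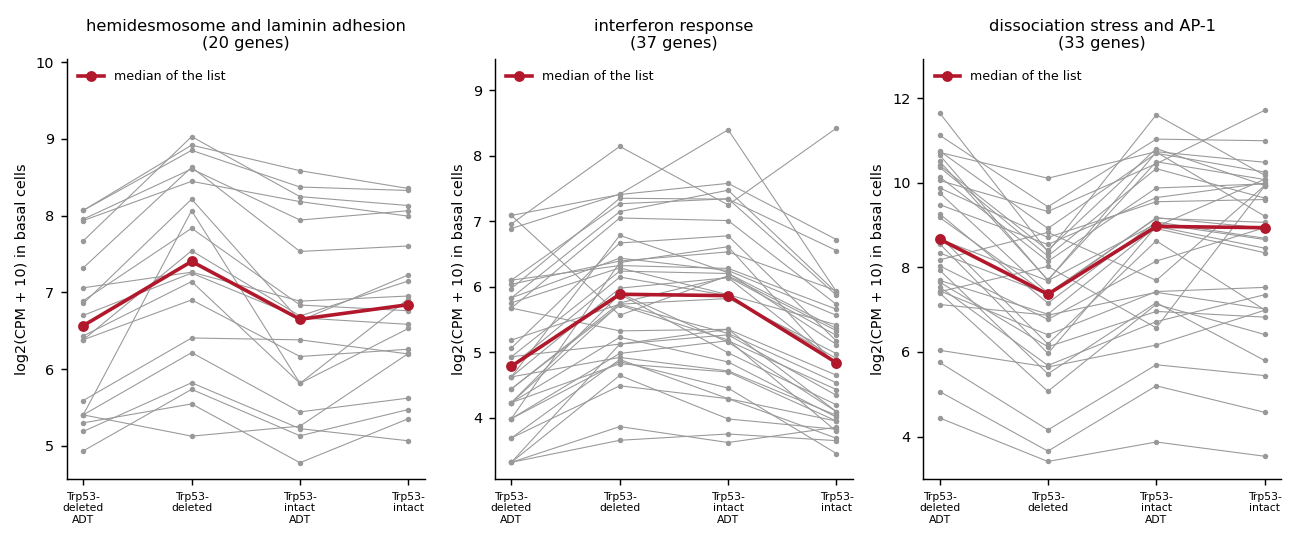
Each grey line is a gene, with log2(CPM + 10) in summed basal cells on the vertical axis and the 4 libraries along the horizontal one, and the red line is the list median in each library. The interferon median is high in Trp53-deleted and Trp53-intact ADT and low in the other 2, the stress median is low in Trp53-deleted alone, and the hemidesmosome median is highest in Trp53-deleted.

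The stress list, which holds AP-1 and immediate-early genes known to be induced when tissue is dissociated, set Trp53-deleted apart from the other libraries. Fos was at 3211 CPM in Trp53-deleted ADT, 320.2 in Trp53-deleted, 3102 in Trp53-intact ADT and 1147 in Trp53-intact basal cells, and was seen in 21 of 23 cells of Trp53-deleted ADT and 35 of 84 of Trp53-deleted. Fosb stood at 1604, 197, 1679 and 582.5 CPM and Atf3 at 1445, 198, 1432 and 1069 CPM. Trp53-deleted was the lowest library for each of the 3. With ADT in Trp53-deleted, 20 of 30 genes were higher and none lower (median 1.76), and 28 lay above the median of all genes. All genes together gave 2.33% higher there. Trp53-deleted against Trp53-intact without ADT gave none of 31 higher and 23 lower (median −1.45), beside 2.30% higher and 1.91% lower among all genes. With TMM factors, 55 of all genes were higher and 272 lower in that comparison. Trp53-deleted ADT against Trp53-intact ADT gave 0 higher and 1 lower of 32 (Cyr61), beside 4.07% lower among all genes.

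Beside 1.36% higher and 1.05% lower among all genes with ADT in Trp53-intact, 4 of 32 stress genes were higher (Klf4, Fosb, Fos and Socs3) and 4 lower. Those lower were Hspa1a, at 85.0 against 958 CPM, its near copy Hspa1b, Hspb1, at 1387 against 3338 CPM, and Cyr61, at 489 against 1073 CPM. Heat-shock and AP-1 genes therefore went different ways in that comparison. The same genes varied outside basal cells: Fos was at 2034, 1012, 2967 and 1047 CPM in luminal cells and at 2590.1, 2430, 2534 and 1481 CPM in neutrophils. The share of cells over the mitochondrial limit was highest in Trp53-deleted. Whether cell handling had a part in the stress genes was not tested.

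Hemidesmosome and laminin genes were lower with ADT in Trp53-deleted, with none of 19 higher and 5 lower (median −0.80, 1 above the median of all genes). All genes together gave 2.33% higher and 9.29% lower there. Col7a1 (chr9:108953586-108984875, plus strand) was at 32.3 CPM in Trp53-deleted ADT against 258 in Trp53-deleted, seen in 7 of 23 and 74 of 84 cells, with a ratio of 0.125 (95% interval 0.0621 to 0.227). Lamb3 was at 106 against 287 CPM, Col17a1 at 194 against 513 CPM and Itgb4 at 149.8 against 386.5 CPM. In Trp53-intact the list hardly differed with ADT (none of 20 higher, 1 lower, median −0.08), although the 1 gene was again Col7a1, at 46.3 against 111 CPM. Without ADT, Trp53-deleted was above Trp53-intact for 17 of 20 genes relative to the median of all genes (3 higher, 1 lower, median 0.58). The list stood 0.34 above all genes there, and TMM factors lowered the count to 0 higher and 1 lower. With ADT the genotypes were level (0 of 20 either way, median −0.04). Trp63 and Snai2 followed the adhesion genes in part: Trp63 was at 118 CPM in Trp53-deleted ADT against 325 in Trp53-deleted, and Snai2 at 11.8 against 84.6 CPM.

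Keratins and differentiation genes added to the contrast between the Trp53-deleted libraries. Krt8 and Krt18 were both at least 2-fold higher in Trp53-deleted ADT than in Trp53-deleted, Krt17 was at 1011 against 285 CPM, and Krt5 and Krt14 differed by less. A single cell of Trp53-deleted ADT held Krt8 at 97.4 and Krt18 at 33.1 per 10000. The medians over cells were 7.15 against 2.44 per 10000 for Krt8 and 8.83 against 2.13 for Krt18. Leaving out cells with Krt8 and Krt18 at 10 per 10000 or more left 9 cells in Trp53-deleted ADT and 73 in Trp53-deleted. Cells of Trp53-deleted ADT that remained had 113 genes higher and 1077 lower (26.6%) out of 4046, and the median of all genes was −0.433. The interferon median was then −0.97 (0 higher, 8 lower of 18), the stress median 1.64 (21 higher) and the hemidesmosome median −0.77 (8 lower). Relative to all genes, interferon stood at −0.53 in place of −1.05, stress at 2.08 in place of 1.99 and hemidesmosome genes at −0.33 in place of −0.57.

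A few cells of Trp53-deleted ADT that met the rule carried genes of the urothelium, the lining of the bladder and urethra. Upk3a, a uroplakin of that lining, had 129 UMIs in 4 of the 23 cells, 121 of them in 2 cells, against none in Trp53-deleted, 41 in Trp53-intact ADT (38 of them in 1 cell) and 8 in 1 cell of Trp53-intact. Of those 4 cells, 3 had no UMI of Krt14, Krt15 or Col17a1, so that they met the rule through Krt5 alone. Upk1a was at 144 CPM in 5 of 23 cells of Trp53-deleted ADT against 9.19 CPM in 2 of 84 cells of Trp53-deleted. Aqp3, a water and glycerol channel gene, was at 179 against 15.8 CPM and Psca at 156 against 26.9 CPM. Summed Upk1a, Upk1b, Upk2 and Upk3a reached 10 per 10000 in 3 cells of Trp53-deleted ADT, none of Trp53-deleted, 2 of Trp53-intact ADT and none of Trp53-intact. Without those cells the urothelial median between the Trp53-deleted libraries was −0.84, in place of 2.17, a fall built into a cut made on uroplakin genes. The interferon median was then −1.16, the stress median 1.86 and the hemidesmosome median −0.69. The medians of the interferon, stress and hemidesmosome lists thus kept their direction without the urothelial-marker cells.

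Other genes of the Trp53-deleted ADT cells rested on more of them. Gstm1, a glutathione transferase, was at 1586 CPM in Trp53-deleted ADT against 47.9 in Trp53-deleted, with a ratio of 33.1 (95% interval 25.9 to 42.9). It was seen in 13 of 23 and 37 of 84 cells, and 1 cell gave 41.5% of the UMIs. Gsta4, another glutathione transferase gene, was at 508 CPM in Trp53-deleted ADT against 92.6 in Trp53-intact ADT, seen in 12 of 23 and 52 of 135 cells. Igfbp2 was at 370.2 against 7.87 CPM in Trp53-deleted, but in 7 of 23 cells. Lower genes included Coro2a, at 14.7 against 167 CPM, Adgrb1, at 29.4 against 189.6 CPM, and Itgb8, an integrin that activates TGF-β, at 14.7 against 102 CPM. Each was seen in 65 to 70 of the 84 Trp53-deleted cells and in 4 to 7 of the 23 Trp53-deleted ADT cells. Fst and BC100530 were also among the 12 highest, yet 1 cell gave 78.9% and 81.0% of their UMIs, and 1 cell likewise gave 81.5% of Clca1 and 96.4% of Ccl20 in Trp53-deleted.

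With ADT in Trp53-intact, several named genes differed on either side. Tnc, encoding the matrix protein tenascin C, was at 112 CPM in Trp53-intact ADT against 15.5 in Trp53-intact, in 53 of 135 against 18 of 133 cells (ratio 7.26, 95% interval 5.37 to 10.0). Ly6k (188 against 38 CPM), Cxcl15 (346.5 against 118 CPM), Dmkn (45.1 against 5.47 CPM) and the near copies Apol9a and Apol9b were also higher. Acta2 and Tagln were higher as well (191 against 61.1 CPM and 124 against 39.9 CPM), with 50.9% and 51.1% of the UMIs in 1 cell. Sult5a1 was lower, with 19 of 135 against 79 of 133 cells and a ratio of 0.0537 (95% interval 0.0344 to 0.0804). The neuropeptide gene Grp was at 1.17 against 66.6 CPM, the tissue factor gene F3 at 56.2 against 300.2 CPM, Mia at 52.7 against 214 CPM and Fxyd4, a regulator of the sodium pump, at 45.1 against 171 CPM. F3 was seen in 32 of 135 against 41 of 133 cells, and 1 cell gave 40.9% of its Trp53-intact UMIs. Secretory protein genes were lower too, with none of 6 higher and 5 lower (Defb50, Wfdc18, Rnase1 and Mmp7 among them). The list holds genes of the rule, Defb50 among them, which had limited which cells could be members, so its count is a description only. The secretory genes of the rule summed to 0.582 CPM in Trp53-intact ADT against 373 in Trp53-intact basal cells. In leukocytes they summed to 0.170 against 877 CPM, and the part of that outside level was not tested. All genes together gave 1.05% lower there.

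The genotype comparisons share no library. Among 7314 genes measured in both, 5 were higher in the Trp53-deleted library both with and without ADT (6.67% of 75 and 3.03% of 165), and 26 were lower in both (9.25% of 281 and 19.4% of 134). The 5 were Cdkn2a, Bmyc, Acpp, Tpm3-rs7 and Gm8797. Genes named for being shared by a pair of comparisons were chosen after their values were seen. Cdkn2a (chr4:89274471-89294653, minus strand), which encodes the cell-cycle inhibitors p16Ink4a and p19Arf, was at 276 CPM in Trp53-deleted ADT, 207 in Trp53-deleted, 60.6 in Trp53-intact ADT and 47.0 in Trp53-intact basal cells. Without ADT the ratio of Trp53-deleted to Trp53-intact was 4.41 (95% interval 3.62 to 5.41). After thinning, Cdkn2a was seen in 38.1%, 22%, 10.7% and 8.66% of basal cells and in 23.7%, 2.18%, 1.75% and 0.780% of neutrophils, so that the background in Trp53-deleted ADT was high. Luminal cells held 375, 476, 129 and 76.9 CPM, more than basal cells in all 4 libraries (log2 fold change of basal over luminal −0.86, SE 0.16, edgeR adjusted p = 0.00448).

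Genes lower in both Trp53-deleted libraries included Trp53 and several signalling genes. Edn1, encoding the peptide endothelin 1, was at 44.1 CPM in Trp53-deleted ADT against 219 in Trp53-intact ADT, and at 12.5 in Trp53-deleted against 239.7 in Trp53-intact. Cyr61, a matricellular protein gene, was at 197 against 489 CPM with ADT and 109 against 1073 CPM without. Hk2, a glycolytic hexokinase gene, was at 64.6 against 344 CPM and 102 against 386 CPM, Reg3g at 126 against 741 CPM and 194 against 480.1 CPM, Dusp5 at 8.81 against 61.7 CPM and 3.28 against 48.6 CPM, and Slpi at 0 against 41.1 CPM and 6.56 against 64.7 CPM. Pmaip1, a p53 target that promotes apoptosis, was at 2.94 against 17.2 CPM and 10.5 against 31.2 CPM, each lower by at least 2-fold on the scale used.

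Most genes of the p53 target list differed by less than 2-fold between the genotypes. Without ADT, 1 of 31 targets was higher in Trp53-deleted (Tap1) and 4 were lower (Btg2, Cdkn1a, Plk2 and Pmaip1), beside 1.91% lower among all genes. The list median was −0.01, against 0.241 over all genes, and 12 of the 31 lay above the median of all genes. With ADT none of 30 was higher and 2 were lower (Gdf15 and Pmaip1), beside 4.07% lower among all genes, with a list median of −0.15 against −0.093 and 12 of the 30 above it. Cdkn1a, the cell-cycle inhibitor p21, was at 141 CPM in Trp53-deleted ADT, 22.3 in Trp53-deleted, 185 in Trp53-intact ADT and 102 in Trp53-intact. Trp53-deleted was the lowest library. After thinning, Cdkn1a was seen in 28.6%, 2.44%, 27.2% and 11% of basal cells. Neutrophils had it more often in every library (40.6% to 51.1%), so they give no background level for this gene. In Trp53-deleted the shares were 2.44% of basal cells and 51.1% of neutrophils. The part of free RNA in the basal values was not tested.

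Without ADT, Trp53-deleted basal cells also had more of several other genes than Trp53-intact cells. Ano1, a calcium-activated chloride channel gene, was at 343 against 113 CPM, in 81 of 84 against 95 of 133 cells. Coro2a was at 167 against 47.0 CPM, Itgb8 at 102 against 29.9 CPM, the phosphatase gene Ctdspl at 167 against 55.0 CPM and the retinol-storing enzyme gene Lrat at 44.0 against 10.6 CPM. On the lower side stood Hspb1, at 629 against 3338 CPM in 71 of 84 against 130 of 133 cells, Errfi1, an inhibitor of the epidermal growth factor receptor, at 87.9 against 610.5 CPM, Sprr1a at 85.3 against 526.5 CPM and Arc at 58.4 against 360.4 CPM. Of the named genes Cxcl5, Clca1 and Cxcl17 drew 99.6%, 81.5% and 58.7% of their Trp53-deleted UMIs from 1 cell, and Olfm4 89.4% of its Trp53-intact UMIs.

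**Figure D5:**
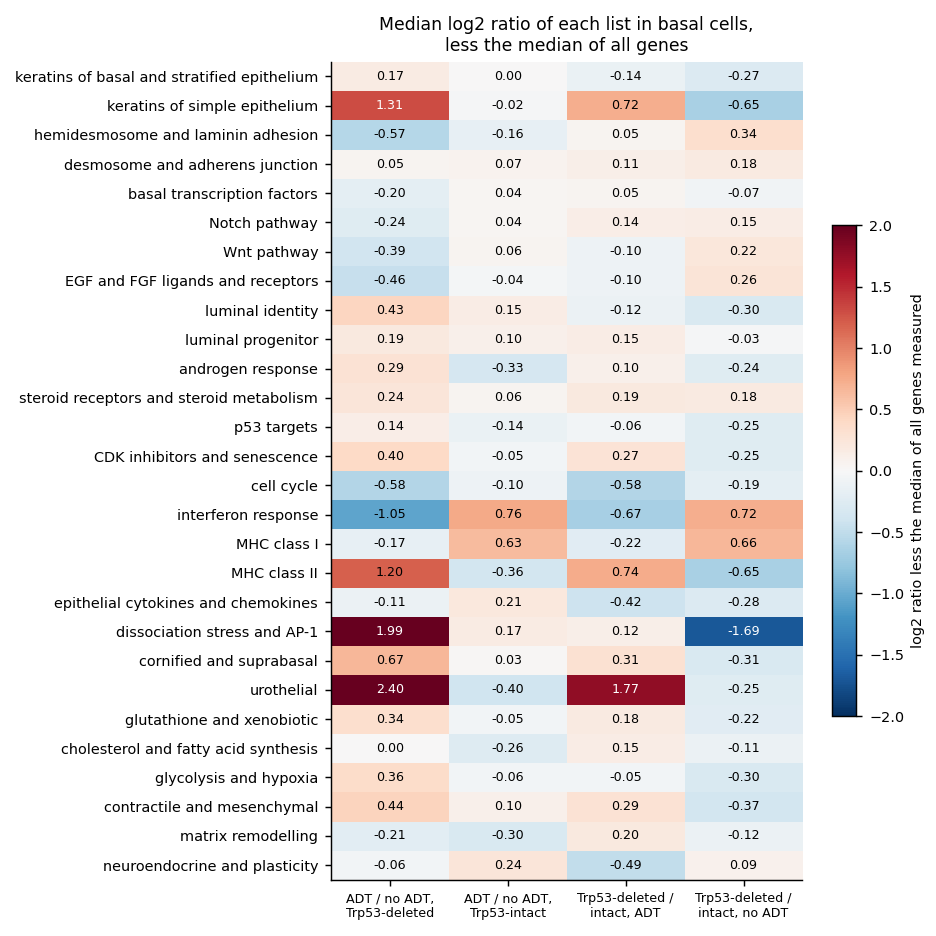
Each cell of the map gives the median log2 ratio of the genes of the list at the left, less the median of all genes measured, for the comparison below; red is higher and blue lower in the library named first. The urothelial list stands at 2.40 with ADT in Trp53-deleted and 1.77 in Trp53-deleted ADT against Trp53-intact ADT, the stress list at 1.99 with ADT in Trp53-deleted and −1.69 in Trp53-deleted against Trp53-intact without ADT, and the interferon row changes sign from column to column.

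The remaining lists differed less, as the map of list medians shows. Basal keratins stood at 0.17 with ADT in Trp53-deleted, 0.00 with ADT in Trp53-intact, −0.14 in Trp53-deleted ADT against Trp53-intact ADT and −0.27 in Trp53-deleted against Trp53-intact, relative to all genes. That list includes Krt5 and Krt14, by which the cells were chosen, so these medians are a description only. None of 25 cell-cycle genes passed 2-fold either way with ADT in Trp53-intact. With ADT in Trp53-deleted 4 of 12 were lower (Mcm5, Ccnd2, Top2a and Ube2c), beside 9.29% lower among all genes. Top2a was seen in 2 of 23 cells of Trp53-deleted ADT and 8 of 84 of Trp53-deleted, too few for a direction. Epithelial cytokine genes were lower in Trp53-deleted ADT than in Trp53-intact ADT for 7 of 23 and higher for 1, Cxcl2. All genes together gave 4.07% lower and 1.16% higher. Ccl20 was at 0 against 149.9 CPM, with 77.9% of the Trp53-intact ADT UMIs in 1 cell. Of 10 Wnt genes none was higher and 2, Wnt10a and Lrp5, were lower with ADT in Trp53-deleted, and of 12 contractile genes 5 were higher and 1 lower. These counts stand beside 2.33% higher and 9.29% lower among all genes.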

How the data were processed

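The deposited values were raw UMI counts per gene and barcode, which the authors made from 10x Chromium 3′ reads; Cell Ranger 2.1.1 and mm10 are named per the submitters' processing notes, whereas the deposited matrices name version 3.1.0 per the file headers. The labels do not say how barcodes were selected, and no doublet caller was run. The matrices held 30905 genes.

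The members and gene lists were chosen with earlier results of these data known. The rest of the genotype, shared by all groups, and some genes are not reported here. Counts were summed per library and cell population. With 1 library per group, libraries were compared by size only, with exact Poisson and binomial intervals at 95%, which cover counting error only. Basal and luminal sums were tested over 4 libraries with edgeR 4.0.16 (quasi-likelihood, TMM, library as a block because both populations came from the same library, Benjamini-Hochberg adjusted p under 0.05); the test code was checked on simulated counts. Nothing says that libraries came from separate litters, so p-values measure the spread between these libraries.

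Named genes were the 15 with the largest fold change each way that moved the same way in all 4 libraries (basal against luminal), and the 12 each way between libraries with at least 50 UMIs whose CPM in the higher library was at least 2 times that of Ptprc-positive cells and not below that of stromal cells, plus marker, Trp53-related and up to 4 leading genes per list. Leukocytes were cells with a Ptprc UMI, and stromal cells had at least 50 stromal-gene UMIs per 10000, at least 2 Col1a2 UMIs and no Ptprc or Epcam UMI. Neutrophils were cells with at least 100 neutrophil-gene UMIs per 10000 and a Csf3r UMI. Gene coordinates are from GENCODE M21 (GRCm38) and promoters from RefSeq (GRCm38.p6). Alternatives were another pseudocount (1 CPM), a limit of 20 UMIs, TMM factors, DESeq2 1.42.0, no filter, no block, leaving out each library, per-cell means, other keratin limits and leaving out cells with luminal keratins or other types' markers. Leaving out cells over 50000 UMIs, urothelial-marker cells, or cells with other types' markers other than Dcn was added after seeing the data.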

Additional observations from a re-analysis of the deposited data

Results flagged for a closer look

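Genes whose log2 ratio of ADT against no ADT was past 2-fold upward in 1 genotype and past 2-fold downward in the other drew attention; each genotype has 1 library with and 1 without ADT, and the difference was not tested. In each case the difference is the ratio in Trp53-deleted less that in Trp53-intact.

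The interferon response list as a whole differed by −2.12, with medians of −1.28 in Trp53-deleted and 0.84 in Trp53-intact. Isg15 differed by −4.21 (−2.38 in Trp53-deleted and 1.82 in Trp53-intact), Ifit1 by −3.26 (−2.16 and 1.10), Rtp4 by −3.21 (−1.60 and 1.61) and Bst2 by −2.88 (−1.32 and 1.56). Ifit3 differed by −2.67 (−1.28 and 1.40), Irf7 by −2.66 (−1.38 and 1.28), Ifi44 by −2.65 (−1.35 and 1.3) and Gbp2 by −2.18 (−1.12 and 1.06). Several of these rest on very few UMIs in Trp53-deleted ADT, where 1 UMI is 2.94 CPM. Isg15 was at 5.88 CPM there, Ifit3 at 11.8, Ifit1 and Ifi44 at 14.7 and Gbp2 at 17.6.

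Outside that list, Cxcl5 differed by −3.49 (−1.51 and 1.97), Myb by −2.78 (−1.73 and 1.05) and Clca3a2 by −2.53 (−1.51 and 1.01). The differentiation gene Sprr1a differed the other way, by 3.30 (2.05 and −1.25), as did Errfi1 by 2.09 (1.04 and −1.06) and Psca by 4.46 (2.17 and −2.29). Of Cxcl5, 99.6% of the Trp53-deleted UMIs came from 1 cell. Myb had 2 UMIs in Trp53-deleted ADT, and Psca had 3 in Trp53-intact ADT.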

How the results depend on the processing

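The sign of the interferon, stress and hemidesmosome medians with ADT in Trp53-deleted, and of the interferon median in the other 3 comparisons, was the same under all 9 alternatives. Counting each list or gene once per alternative, 998 list medians moved by little, 41 moved and 4 reversed. Counted likewise, 668 values of named ratios moved by little, 186 moved and 10 reversed, and 387 values of named basal-luminal genes kept the call and 8 lost it. The cause was not tested for any of these.

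With at least 1 Krt5 UMI the basal share was 2.63% in Trp53-intact ADT and 1.99% in Trp53-intact, and with keratins at 20 per 10000 it was 1.36% and 1.15%. With 1 CPM added, the counts were 797 lower with ADT in Trp53-deleted, in Trp53-intact 303 higher and 188 lower with ADT, 182 higher and 743 lower in Trp53-deleted ADT against Trp53-intact ADT, and 614 higher in Trp53-deleted against Trp53-intact. Means of per-cell shares gave 838 lower with ADT in Trp53-deleted, in Trp53-intact 208 higher and 154 lower with ADT, 349 higher and 557 lower between the ADT libraries, and 376 higher between those without ADT. A limit of 20 UMIs gave 206 higher with ADT in Trp53-deleted and 136 higher between the ADT libraries. TMM factors gave 310 lower with ADT in Trp53-deleted, and 55 higher and 272 lower between the libraries without ADT. Without cells high in Krt8 and Krt18 there were 1077 lower with ADT in Trp53-deleted, and 54 higher and 465 lower between the ADT libraries; without cells with other types' markers there were 303 lower and 132 higher in those comparisons.

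For basal against luminal cells, leaving out 1 library in turn gave 1147 to 2048 genes higher and 1327 to 2179 lower, the lowest without Trp53-intact. Without the library block the counts were 1393 and 1484, and DESeq2 gave 1722 and 1987; the block is a pairing by library.

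Reversed without cells high in Krt8 and Krt18 were Fst (−0.41), Clca1 (0.48) and the Krt8 and Krt18 list (−0.36) with ADT in Trp53-deleted, Acta2 (−0.66) and Ptcra (0.13) with ADT in Trp53-intact, Mcub (−0.23) between the ADT libraries, and Cxcl5 (−0.64), Ly6k (−0.29) and Cxcl17 (−0.61) between those without ADT, where Cxcl5 also reversed without cells over 50000 UMIs (−0.29). Without urothelial-marker cells the urothelial list reversed with ADT in Trp53-deleted (−0.84) and between the ADT libraries (−0.18), as did Upk3a there (−0.12). Krt8 and Krt18 or the uroplakins had chosen the cells left out, so falls of the lists that hold them were built into the cuts. The Wnt list with ADT in Trp53-deleted reversed without cells with other types' markers (0.12). Depth limits Trp53-deleted ADT most, where 3 UMIs in the 23 cells amount to 8.81 CPM.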
